A study of Mus musculus with 15 samples.

Results

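The genes that encode the proteins of the cytosolic ribosome were followed through single-cell RNA sequencing (scRNA-seq) of the mouse prefrontal cortex (PFC). They were chosen by symbol, as every gene named Rpl or Rps with a number, Rplp with a number, or Rpsa, without the S6 kinases whose symbols start with Rps6k. This gave 143 of the 26145 genes counted in each library. Of these, 46 were proteins of the large subunit and 31 of the small subunit, 77 core genes in all. A further 8 were paralogs (Rpl3l, Rpl7l1, Rpl10l, Rpl22l1, Rpl36al, Rpl39l, Rps4y2 and Rps27l), 57 had symbols of processed copies that end in "-ps" and a number or letter code, and Rps19bp1, a binding partner of Rps19, entered through its symbol. The authors took ribosomal genes out before they clustered the cells, so the clusters and cell types used here were not made from these genes.

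Every library came from male C57BL/6N mice, and each P60 library pooled the PFC of a pair of mice. Of the 15 libraries, 12 were of adult mice (P60 in the study, 8 to 10 weeks in the labels) and 3 of untreated mice at P21. The adult mice had been food-trained, fitted with a jugular catheter and given intravenous self-administration (IVSA) of cocaine or, as controls, of saline in the same procedure, which the P21 mice had not. They were collected at the end of the maintenance phase, at 48 h of withdrawal or at 15 d of withdrawal, with 2 libraries in each of the 6 groups of treatment and period. Age therefore cannot be told apart from the IVSA procedure in the comparison of P21 with saline P60. The paper places the catheter surgery at P60, with self-administration and any withdrawal after it. P60 here thus names the adult libraries, whose mice were older than P60 when collected. The 15 d groups were also collected later in this schedule than the maintenance groups. For P21 the methods count 4 mice and say that each replicate pooled a pair of mice, which does not match the 3 P21 libraries listed. The p-values against P21 may therefore rest partly on technical spread. The labels also give the nucleus accumbens as the tissue. Drd2, Ppp1r1b and Adora2a, markers of its spiny neurons, which are inhibitory, summed to 1.96 to 15.9 CPM (UMIs of a gene per 1000000 UMIs) in the inhibitory neurons of saline P60 libraries, against 2756 to 3833 CPM for Gad1, Gad2 and Slc32a1.

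After the authors' filters 35360 cells remained. The cells of a P60 library held 8375172 to 42892922 unique molecular identifiers (UMIs, each a counted mRNA molecule), with a median of 3426 to 11334 UMIs per cell over all libraries. Excitatory neurons made up 25.1% to 73.8% of the cells of a library, so levels were compared within cell types and not between whole libraries. Any pair of libraries shared at most 27 cell barcodes. A level below is the CPM of the summed UMIs of a cell type in a library, and a share is the percentage of the UMIs that fell on the 143 genes, both without mitochondrial UMIs. UMIs count the 3′ ends of transcripts and were not divided by length.

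A ribosome holds one copy of nearly every core protein, and cells make these proteins in step. Many of the messages begin with a C followed by a run of pyrimidines, the 5′ terminal oligopyrimidine (TOP) motif, through which the mTORC1 kinase and the RNA-binding protein Larp1 set how strongly they are translated. Neurons also carry ribosomal messages into axons and dendrites, and most ribosomal protein genes have processed copies elsewhere in the genome that can take or share their reads.

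The 15 bases before and the 15 bases from the annotated start (RefSeq, GRCm38.p6) are shown for 2 of the 5 genes with the highest shares, for the 5 core genes called higher at P60 in 3 cell types, and for the 3 core genes called lower in excitatory neurons. Capitals mark the run of 5 or more pyrimidines that opens with a C and lies nearest the start, where it begins within 10 bases of it. Other runs are left in lower case.
Rpl13a, chr7:45128731-45128760, minus strand, among the highest shares: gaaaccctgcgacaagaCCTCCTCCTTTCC
Rpl41, chr10:128549154-128549183, minus strand, among the highest shares: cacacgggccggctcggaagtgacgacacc
Rps10, chr17:27635230-27635259, minus strand, higher at P60: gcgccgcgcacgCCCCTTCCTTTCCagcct
Rpl12, chr2:32961697-32961726, plus strand, higher at P60: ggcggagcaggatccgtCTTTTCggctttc
Rps23, chr13:90923107-90923136, plus strand, higher at P60: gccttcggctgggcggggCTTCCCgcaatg
Rpl5, chr5:107900513-107900542, plus strand, higher at P60: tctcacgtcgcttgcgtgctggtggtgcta
Rps25, chr9:44407699-44407728, plus strand, higher at P60: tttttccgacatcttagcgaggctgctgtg
Rplp0, chr5:115559452-115559481, plus strand, lower at P60: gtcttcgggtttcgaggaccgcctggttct
Rpl13, chr8:123102335-123102364, plus strand, lower at P60: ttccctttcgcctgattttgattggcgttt
Rps2, chr17:24720048-24720077, plus strand, lower at P60: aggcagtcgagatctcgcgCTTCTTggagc
Of the 57 core genes with a start in the table, 13 (22.8%) had the C and 4 pyrimidines exactly at the start and 27 (47.4%) within 5 bases of it, read on the strand of the gene. Over all 27025 genes of the table these shares were 3.01% and 21.2%. The search used 1 annotated base as the start, so a gene without a match lacked these letters only at that place.

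At P60 the 143 genes held 6.92% of all UMIs. The large subunit took 57.9% of these and the small subunit 39.6%, the paralogs 2.05%, the "-ps" symbols 0.305% and Rps19bp1 0.0953%. No single gene led by far. Rps14, a small-subunit protein, was highest with 0.181% ± 0.0157 of UMIs (SD, n = 12), followed by Rpl41 with 0.169% ± 0.0376, Rpl13a, Rpl3 and Rpl19. The 5 highest genes together took 11.9% of the UMIs of the 143 genes, and the highest core gene had 8.84 times the UMIs of the lowest. Rpl3l, Rpl10l and Rpl39l, paralogs known mainly from muscle and testis, had 96, 3 and 141 UMIs in all P60 cells. The core genes lie on 20 chromosomes (76 with a position in the mm9 annotation), and for 66 of them the last 300 bases of the transcript had at least 1 near-identical match elsewhere, with a median of 5 and up to 57. Reads of these genes may therefore be lost to or gained from copies.

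Cell types differed widely in the share of UMIs on these genes. In microglia, the resident immune cells, the share was 19.2% ± 1.93 (SD, n = 12 libraries), and it ran from 16% in saline 15 d replicate 1 to 22.3% in cocaine maintenance replicate 1. Endothelial cells followed with 11.1% ± 0.72 (10.0% to 12.2%). No endothelial library reached the lowest microglia library. Newly formed oligodendrocytes had 8.18% ± 0.743 and inhibitory neurons 7.37% ± 0.588. Oligodendrocyte precursors had 6.43% ± 0.482, excitatory neurons 6.06% ± 0.34 and mature oligodendrocytes 5.67% ± 0.526. Astrocytes were lowest with 4.60% ± 0.482 (3.77% to 5.23%, n = 11). Microglia, endothelial cells and newly formed oligodendrocytes did not overlap in this order, while later neighbours overlapped across libraries but differed within them. All 28 pairs of types passed a two-sided exact sign-flip permutation test over libraries, with adjusted p between 0.00105 and 0.00293. Of the 7 neighbouring pairs, newly formed oligodendrocytes did not pass against endothelial cells (3.32 points) or inhibitory neurons (0.669) when each library needed 30 cells. Excitatory neurons minus mature oligodendrocytes, 0.396 here, was 0.140 and did not pass with the mean of the cells' own shares, and with only the 6 saline libraries none of the 7 passed. Microglia exceeded endothelial cells by 8.13 percentage points (SD 1.67) in 12 of 12 libraries. Libraries also moved together, since saline 48 h replicate 1 and cocaine 48 h replicate 1 were among the 3 lowest in 7 of 8 types.

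**Figure D1:**
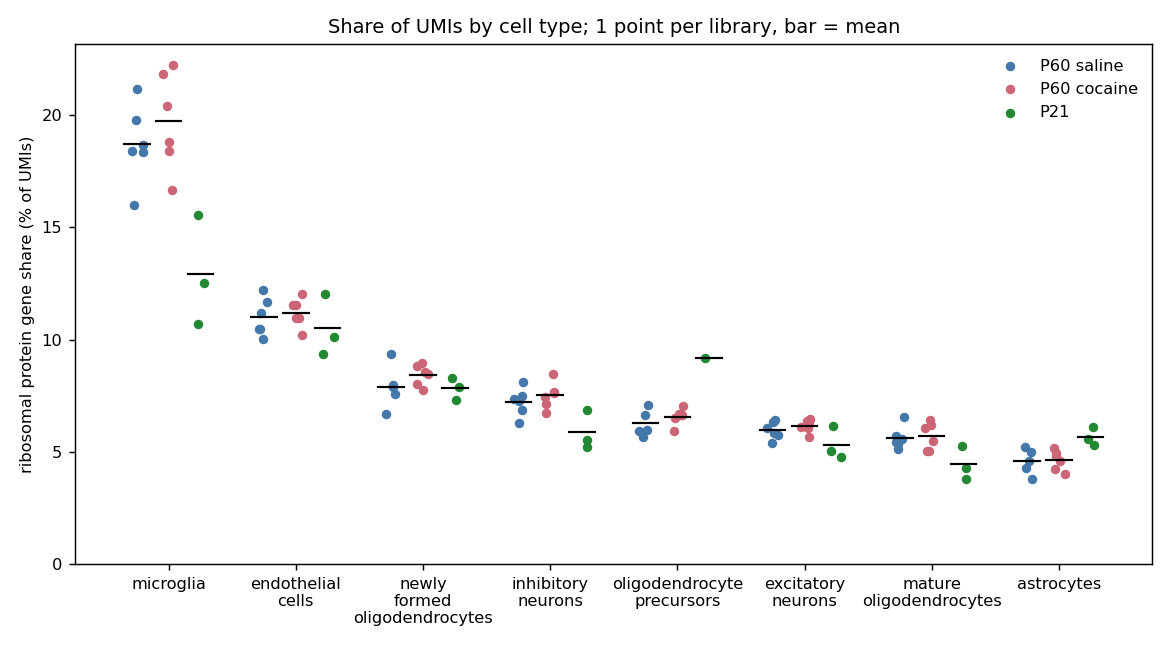
Share of UMIs on ribosomal protein genes (vertical axis, percent) for 8 cell types, with 1 point per library for saline P60, cocaine P60 and P21 and a bar at each group's mean. The P60 libraries of microglia lie between 16% and 22.3%, above all other types, and those of astrocytes between 3.77% and 5.23%.

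Between types, the share did not follow the number of UMIs per cell. Microglia had a median of 3213.5 UMIs per cell, of which 640 were on ribosomal protein genes, while excitatory neurons had 13620 UMIs per cell and 826 on these genes. Mature oligodendrocytes and astrocytes had nearly as few UMIs as microglia (3626 and 3512), but 204 and 148 of them were ribosomal. A low share in excitatory neurons thus went with the highest absolute number of ribosomal UMIs per cell. Over the cells within a type, the Spearman correlation of share with UMIs ran from -0.353 in mature oligodendrocytes to 0.267 in astrocytes. This is a description, since cells are no replicates. The balance of the subunits also differed between types. The large subunit took 55.1% of core UMIs in microglia and 55.7% in endothelial cells, against 60.4% in excitatory neurons, 60.1% in inhibitory neurons and 60.5% in oligodendrocyte precursors.

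The high share of microglia was spread over the whole set of proteins. Of the 77 core genes, 75 had their highest mean level in microglia, and 66 had their lowest in astrocytes. Rps14 was at 4928 CPM in microglia, 3672 CPM in endothelial cells, 1541 CPM in excitatory neurons and 1283 CPM in astrocytes. Rps27, a zinc-finger protein of the small subunit, was at 3328 CPM in microglia and 654 CPM in excitatory neurons. Both exceptions belonged to the large subunit. Rpl38, known for its part in translating Hox messages, was highest in endothelial cells with 1605 CPM against 1316 CPM in microglia. Rpl13 was highest in oligodendrocyte precursors with 3449 CPM (1731 to 6159 CPM over libraries), against 2573 CPM in microglia and 1008 CPM in newly formed oligodendrocytes. Rplp0, the base of the stalk that recruits translation factors, was at 2784 CPM in microglia, 1252 CPM in endothelial cells, 936 CPM in mature oligodendrocytes and 319 CPM in excitatory neurons. The profile of the 77 core levels was most alike in inhibitory and excitatory neurons (Pearson r = 0.979 across genes, a description, since genes are no replicates) and much less alike in microglia and newly formed oligodendrocytes (r = 0.781).

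**Figure D2:**
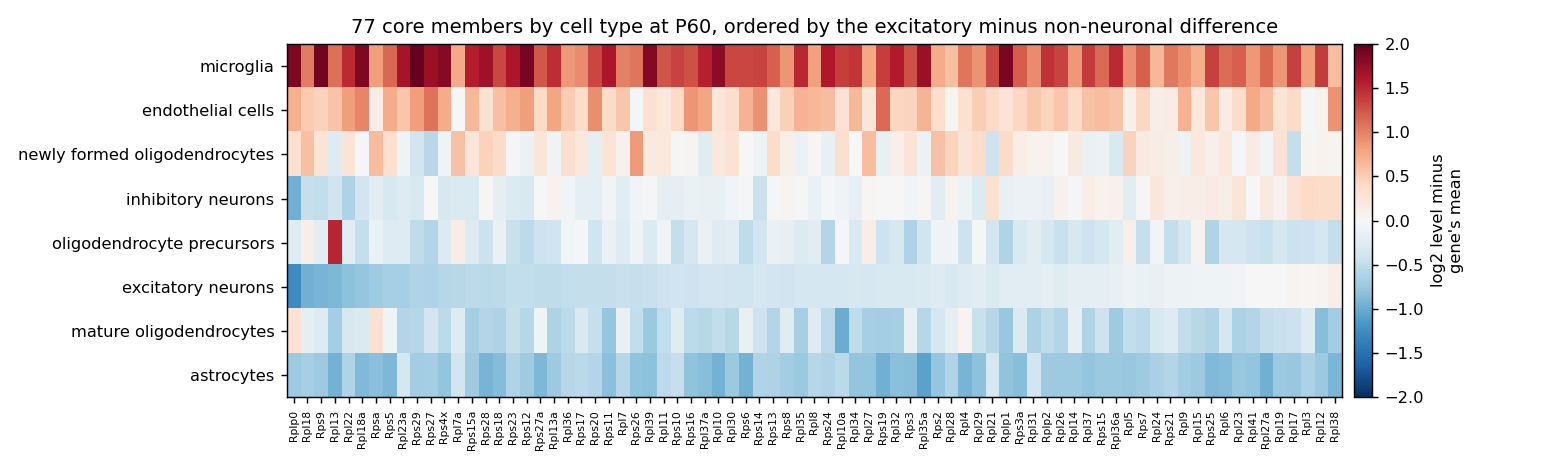
Mean P60 level of the 77 core genes (columns, ordered by the excitatory minus non-neuronal difference) in 8 cell types (rows), coloured by the log2 level minus the gene's mean over types. The microglia row is highest for 75 of 77 genes, while Rpl38 and Rpl13 peak in endothelial cells and oligodendrocyte precursors.

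Excitatory neurons were then compared with the mean of the 6 non-neuronal types, gene by gene, with edgeR's quasi-likelihood test and library as a block. Of 93 ribosomal protein genes tested, 5 were higher and 77 lower in excitatory neurons, against a background of 47.6% of all genes called higher and 33.8% called lower. All 31 small-subunit genes were lower, with a median log2 difference of -0.60, as were 37 of 46 large-subunit genes with a median of -0.37. The median of all genes tested was 0.14. The mean over the 6 types hides their order. In CPM, the core genes' median log2 difference from excitatory neurons was 1.63 in microglia and 0.78 in endothelial cells. It was 0.42 in newly formed oligodendrocytes and 0.08 in oligodendrocyte precursors. By the same median, excitatory neurons exceeded mature oligodendrocytes by 0.15 and astrocytes by 0.39. Rplp0 had the largest difference among the core genes at -1.68 (SE 0.0658, adjusted p 2.92e-43), followed by Rpl18 at -1.25 and Rps9 at -1.21. Rpsa, which is also a laminin receptor, was lower by -0.91, and the X-linked Rps4x by -0.76. Rpl41, Rpl3 and Rpl19, among the most abundant, had values of -0.04, 0.06 and -0.01 and did not pass the test. Rps14, the most abundant, was among the small-subunit genes called lower. The 1 core gene called higher was Rpl38 at 0.17, a sign that turned to -0.07 with DESeq2 size factors, while under that scaling the median of all genes moved by -0.22.

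The 5 paralogs tested went in both directions, with 3 higher, 1 lower and 1 not called. Rpl22l1, which can stand in for Rpl22 in the ribosome, was higher in excitatory neurons by 0.89 on the log2 scale (SE 0.0517, adjusted p 1.64e-30), while Rpl22 was lower by -1.11 (SE 0.0697, adjusted p 5.70e-28). In CPM, Rpl22 ran from 752 in microglia and 480 in endothelial cells to 176 in inhibitory and 152 in excitatory neurons. Rpl22l1 was at 1000 CPM in inhibitory and 782 CPM in excitatory neurons, above every non-neuronal type. Among those it was highest in microglia with 526.4 CPM, as Rpl22 was, and lowest in mature oligodendrocytes with 266 CPM. The opposite signs held under all 3 scalings, with 0.65 and 0.80 for Rpl22l1 and -1.34 and -1.20 for Rpl22 under the other scalings. Rps27l, a p53 target and paralog of Rps27, had the largest difference of all, at -1.99 (SE 0.0721), with 489 CPM in newly formed oligodendrocytes and 77.6 CPM in excitatory neurons. Rps4y2 at 0.39, Rpl36al at 0.32 and Rps19bp1 at 1.08 were higher in excitatory neurons, and Rpl7l1 at 0.09 did not pass the test.

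Between excitatory and inhibitory neurons the differences of single genes were small, although the share was higher in inhibitory neurons in 12 of 12 libraries. Of the 93 genes, 6 were higher and 17 lower in excitatory than in inhibitory neurons, against a background of 34.6% and 21.4%. Rpl5, a partner of Rpl11 in the 5S particle, was higher by 0.33 and Rps14 by 0.33, while Rps27, Rpl13a and Rpl21 were lower by -0.37, -0.37 and -0.36. Rps4y2 was lower by -0.93 (SE 0.102), with no other gene of the set past 0.5 in either direction. The split depends on scaling, with 2 higher and 71 lower under DESeq2 size factors (23.7% and 30.6% of all genes) and 3 and 47 when the scaling came from other genes (28.7% and 25.7%). It turned to 15 higher and 8 lower without the filter on low counts (28.1% and 13.3%). Those scalings moved the median of all genes in this comparison, 0.11, by -0.17 and -0.09. The sign of Rplp2, 0.17 here, was -0.02 under DESeq2 size factors, a move close to that of the median. The median of the core genes was -0.06 in the main fit, with 25 of 77 above 0. It was -0.25 under DESeq2 size factors (4 above 0) and -0.16 with scaling from other genes (10 above 0).

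Below the level of types, 80 of the 98 P60 clusters had at least 10 cells in 2 or more libraries. The 3 highest were Microglia_8 with 21.2% ± 1.29 (n = 4), Microglia_5 with 21.1% ± 2.17 (n = 10) and Microglia_7 with 20.7% ± 1.45 (n = 7). The 3 lowest were Astro_8 with 4.25% ± 0.443 (n = 9), Oligo_1 with 4.42% ± 0.57 (n = 8) and Astro_5 with 4.47% ± 0.382 (n = 9). The 26 excitatory clusters lay close together, between 5.48% in Exc_1 and 6.79% in Exc_21, and the 8 inhibitory clusters between 6.48% and 8.32%. The highest excitatory cluster mean thus overlapped the lowest inhibitory one. Endothelial clusters were the widest, from 6.34% in Endo_13 to 15.2% in Endo_3. In Endo_13, haemoglobin took 43.8% of UMIs, and with those left out of the denominator its share was 11.3%.

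**Figure D3:**
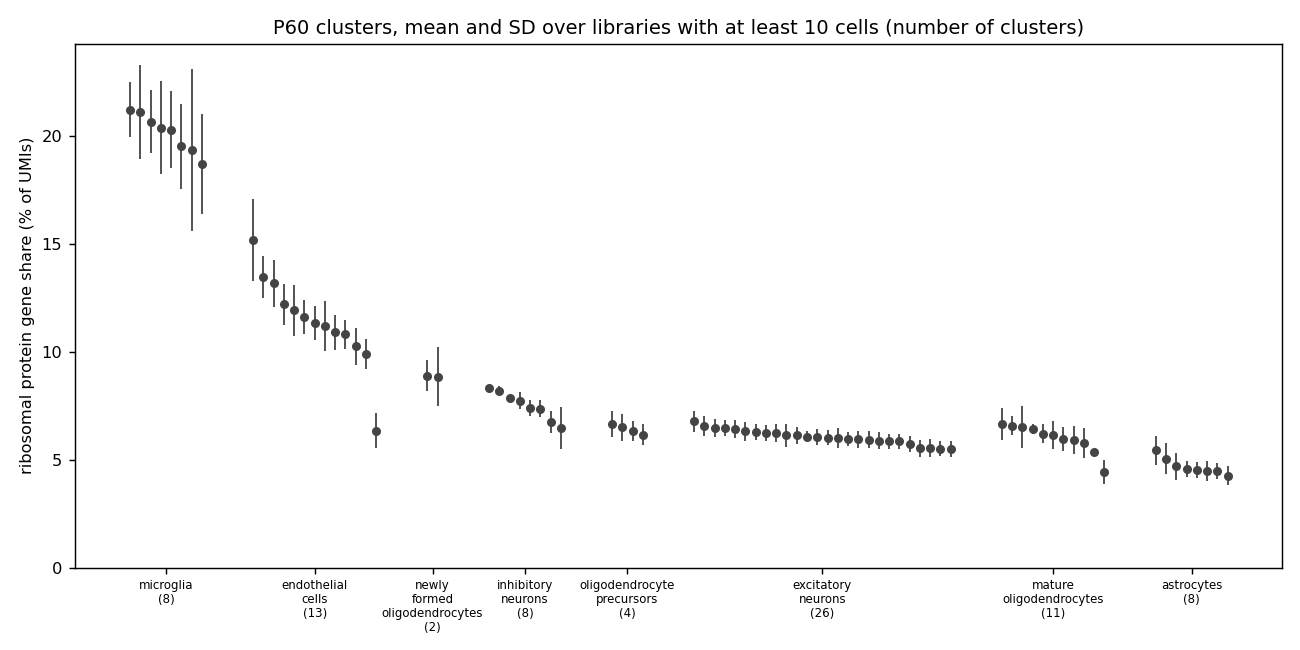
Share of UMIs on ribosomal protein genes (vertical axis, percent) for 80 clusters grouped by cell type, with points at the mean and bars for the SD over P60 libraries with at least 10 cells. Microglia clusters lie between 18.7% and 21.2%, and excitatory clusters between 5.48% and 6.79%.

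Between P21 and saline P60, the share was higher at P60 in microglia, neurons and mature oligodendrocytes and lower in astrocytes, but no type passed the test after adjustment over 7 types. In microglia the P21 libraries had 15.6%, 12.5% and 10.7%, and the 6 saline P60 libraries 16% to 21.2% with a mean of 18.7% ± 1.72. The groups did not overlap, and the difference of 5.81 percentage points had an exact permutation p of 0.0119, the smallest that 84 assignments allow, and an adjusted p of 0.0556. These P21 libraries held 149, 21 and 12 microglia. Inhibitory neurons had 6.85%, 5.23% and 5.51% at P21 against 7.22% ± 0.612 (difference 1.36, adjusted p 0.0556 by the exact permutation test). Mature oligodendrocytes had 5.26%, 3.78% and 4.27% against a mean of 5.62% (difference 1.19, adjusted p 0.0556 by the same exact test). In both types P21 replicate 1 was highest of the 3. Excitatory neurons had 6.16%, 4.76% and 5.05% at P21 against 5.97% ± 0.377, with overlap (difference 0.645, exact permutation p 0.119, adjusted p 0.167).

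Astrocytes went the other way. The P21 libraries had 5.59%, 5.28% and 6.12%, all above the 5 saline P60 libraries with a mean of 4.57% ± 0.575 (difference -1.09, exact permutation p 0.0357, adjusted p 0.0625). Haemoglobin took up to 2.07% of UMIs in these saline P60 libraries. Without it, the highest saline P60 and the lowest P21 library were both at 5.28%, with means of 4.62% and 5.68%. Newly formed oligodendrocytes (7.83% and 7.89%) and endothelial cells (10.5% and 11%) differed by 0.0628 and 0.50, within the spread of libraries. Haemoglobin took 9.14% to 12.1% of endothelial UMIs at P21 and 4.68% to 7.83% in saline P60, and without it the endothelial difference was -0.103. Set against excitatory neurons of the same library, the age difference was larger in microglia by 5.16 percentage points, in inhibitory neurons by 0.715 and in mature oligodendrocytes by 0.543, and smaller in astrocytes by -1.78. These 4 passed the exact permutation test with an adjusted p of 0.0357 each. With P21 libraries 2 and 3 summed they were 4.60, 0.677, 0.545 and -1.56, and with only the 2 saline 15 d libraries 4.04, 0.635, 0.286 and -1.48, and none passed with so few libraries. With mitochondrial UMIs kept, that of mature oligodendrocytes (0.434) did not pass. Within neurons, 26 of 26 excitatory and 3 of 3 inhibitory clusters had a higher mean at P60, by 0.298 to 1.51 and by 0.769 to 1.76, though 0 passed the exact permutation test after adjustment and 4 had an unadjusted p below 0.05.

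Other measures differed between the ages as well. Excitatory neurons had a median of 7345 to 11457 UMIs per cell at P21 and 11898 to 14834 in saline P60, and mitochondrial UMIs were 3.38% to 3.85% and 2.33% to 2.76% of theirs, both without overlap. In microglia, C1qa, C1qb, Cx3cr1 and Csf1r (4 of 4 found) summed to 11052 to 19316 CPM at P21 and 17548 to 27925 CPM in saline P60. Markers of mature oligodendrocytes (5 of 5 found) reached 282 to 2431 CPM in P21 microglia and 37.8 to 271 CPM in saline P60 microglia. The 7 genes of a dissociation and stress list, among them Fos and Jun, summed to 10594 to 13669 CPM in P21 microglia against 6803 to 11645 CPM, to 1977 to 6470 CPM in P21 astrocytes against 484 to 1681 CPM, and to 818 to 843 CPM in P21 excitatory neurons against 366 to 553 CPM. Their part in the shares was not tested. The P21 cells took their type from the P60 cluster they correlated with best, a step of the authors.

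Gene by gene, excitatory neurons had 22 ribosomal protein genes higher and 11 lower at P60 of 113 tested, against a background of 19.1% and 21.1% of all genes. Among the 77 core genes, 20 were higher and 3 lower, with a median log2 difference of 0.27 where that of all genes was 0.00. Rpl22l1 was at 669, 762 and 929 CPM (lowest, median and highest) in saline P60 and at 629, 444 and 504 CPM in the P21 libraries. The groups did not overlap, and the log2 difference was 0.66 (SE 0.150, adjusted p 0.00444). Rpl5 was at 400, 473 and 532 CPM against 358, 371 and 369 CPM, again without overlap, with a difference of 0.44 (SE 0.0902, adjusted p 0.00223). Rps10 was at 362, 481 and 584 CPM against 440, 279 and 287 CPM, where P21 replicate 1 lay within the P60 range (difference 0.58, SE 0.170, adjusted p 0.0176). Rps6, the substrate of S6 kinase, and Rps19, whose human gene is mutated in Diamond-Blackfan anaemia, were higher by 0.30 and 0.37. Among the most abundant genes, Rpl19 was called higher, by 0.31. Rps14 at 0.17, Rpl41 at 0.13, Rpl13a at 0.03 and also Rpl3 did not pass the test. Rplp1 at 0.38, Rplp2 at 0.46 and Rps27 at 0.64 did not pass either, each with 1 P21 library inside the P60 range.

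Rplp0, Rpl13 and Rps2 were the 3 core genes lower in excitatory neurons at P60. Rplp0 was at 290, 317 and 353 CPM in saline P60 and at 385, 432 and 412 CPM at P21, with a difference of -0.30 (SE 0.0776, adjusted p 0.00888). Rpl13 was at 360, 455 and 955 CPM against 1223, 1168 and 1105 CPM, with a difference of -1.05. Rps2, which sits at the mRNA entry channel, was at 96.9, 114 and 361 CPM against 843, 490 and 394 CPM, with a difference of -1.84 (SE 0.470). Both also differed between P60 libraries, as given below. Of 30 "-ps" symbols tested, 1 was higher (Rpl29-ps2 at 1.17) and 7 were lower, among them Rpl13-ps3 at -2.72 and Rps2-ps5 at -3.70, and Rps19bp1 was lower by -1.25. Rps2-ps5 had a mean of 0.0727 CPM in saline P60, so the size of its difference depends on the prior count of the fit. Core genes called higher had a median of 7.5 near-identical ends elsewhere, those called lower 8 (5 to 52) and those not called 5.

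In inhibitory neurons 16 of 91 genes were higher and 2 lower (background 8.72% and 10.1%). Rps10 at 0.72, Rps25 at 0.54, Rps19 at 0.50 and Rpsa at 0.50 led. In mature oligodendrocytes 11 of 85 were higher and 1 lower (background 9.02% and 10.9%). There Rpl22l1 was at 237, 261 and 286 CPM in saline P60 against 182, 141 and 163 CPM, a difference of 0.60 (SE 0.144), and Rps6 was higher by 0.51. The 6 genes called higher in excitatory neurons, inhibitory neurons and mature oligodendrocytes were Rpl5, Rpl12, Rpl22l1, Rps10, Rps23 and Rps25, which were chosen by this count. How many of all genes were called higher in these types together was not counted. In microglia 0 of 89 passed the test in edgeR (background 0.0245% higher and 0.735% lower), yet the core median was 0.72 against 0.07 for all genes, and 71 genes had an unadjusted p below 0.05, as did 532 of all 4083 genes. In these libraries Rplp1 had a difference of 1.13 and Rpl10 of 1.02, each with an adjusted p of 0.0841.

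The remaining types had no gene of the set called higher at P60. In endothelial cells 0 of 98 were higher and 12 lower (background 6.78% and 9.49%), with Rpl22l1 at 375, 432 and 471 CPM in saline P60 against 523, 469 and 511 CPM, a difference of -0.37 (adjusted p 0.0260). Rpl22l1 was thus called higher at P60 in neurons and mature oligodendrocytes and lower in endothelial cells, where 1 P21 library lay within the P60 range. Of 9 fits that each left out 1 library, its call held in only 4 in endothelial cells and 3 in inhibitory neurons. It held in 9 in excitatory neurons and 8 in mature oligodendrocytes. Rps7 at -0.53, Rplp0 at -0.46 and Rpl36al at -0.39 were also lower in endothelial cells. Of the 12 lower in endothelial cells, 4 were core genes and 5 were "-ps" symbols. The endothelial core median was -0.05, with 30 of 77 core genes above 0. In astrocytes 0 of 87 were higher and 3 lower (background 0.138% and 0.963%), and these were Rpl13-ps3, Rpl13 at -1.79 and Rplp0 at -0.89. Rplp0 was at 330, 491 and 548 CPM in saline P60 astrocytes against 621, 1046 and 975 CPM. In newly formed oligodendrocytes 0 of 84 were higher and 1, Rpl13 at -1.30, was lower (background 0.817% and 1.15%). Over the 7 types, 49 of 647 pairs of gene and type were called higher and 30 lower at P60. Of all pairs, 8.65% and 10.3% were called so. The calls fell on 40 genes, and Rpl22l1 alone passed in both directions. How many of all genes passed in at least 1 type was not counted.

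**Figure D4:**
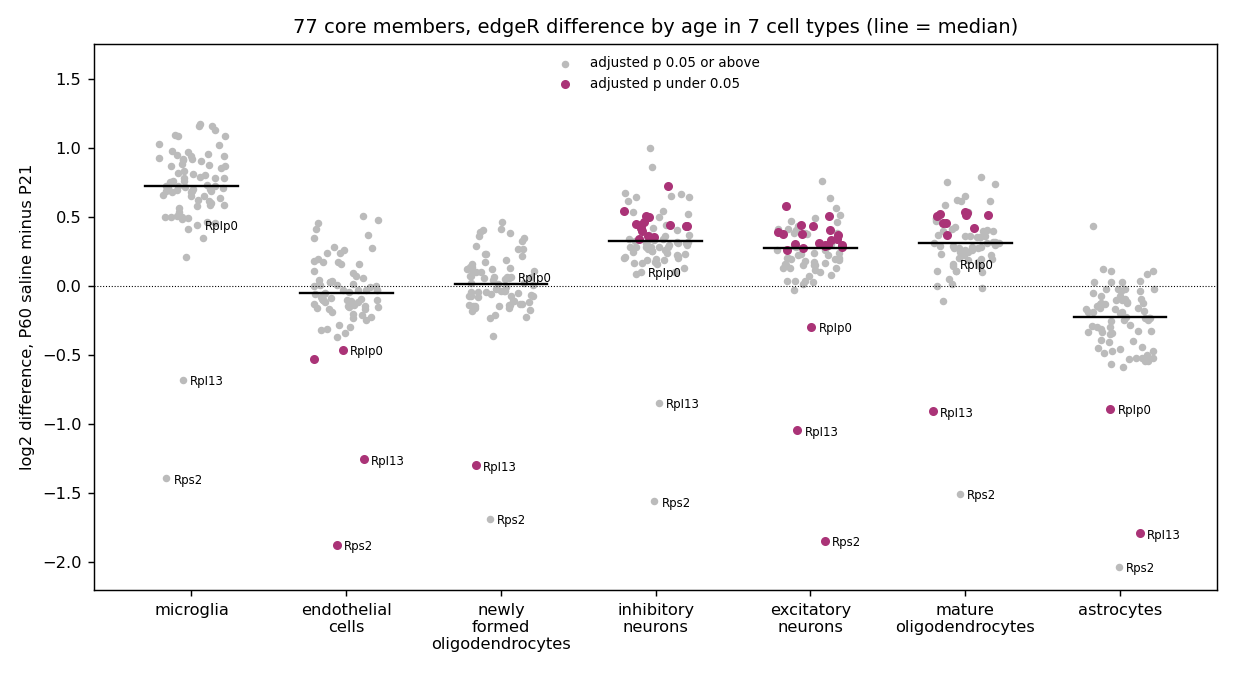
Differences of the 77 core genes between saline P60 and P21 (vertical axis, log2, edgeR) in 7 cell types, with 1 point per gene, a line at the median, and genes with an adjusted p under 0.05 in colour. The medians run from -0.23 in astrocytes to 0.72 in microglia, and Rpl13 and Rps2 lie below 0 in all 7 types.

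These counts turned on the P21 libraries. Without P21 replicate 1, 53 genes were higher in excitatory neurons (46.9%, against 19.3% of all genes in that fit), 48 in inhibitory neurons (52.7% against 10.0%) and 34 in mature oligodendrocytes (40.0% against 8.28%). In the same fits 31 were higher in microglia (34.4% against 1.05%) and 8 in endothelial cells (8.16% against 7.87%). Without P21 replicate 3 these counts were 5, 0, 2, 0 and 0, where 12.8%, 3.36%, 4.56%, 0.0215% and 3.81% of all genes were higher. Without P21 replicate 2 they were 8, 0, 1, 0 and 0, where these shares were 14.3%, 4.52%, 4.22%, 0.0208% and 3.75%. Leaving out a saline P60 library also moved some counts by more than 1.5 times. The share of all genes called the same way in each such fit is given in parentheses. In excitatory neurons 13 genes were higher without saline 48 h replicate 2 (16.2%), 13 without saline 15 d replicate 1 (16.5%) and 14 without saline 15 d replicate 2 (17.8%). In inhibitory neurons 9 in place of 16 were higher without saline 15 d replicate 1 (6.65%), 10 without saline 48 h replicate 2 (6.06%), and 5 in place of 2 were lower without saline 15 d replicate 2 (9.44%). In mature oligodendrocytes 3 to 8 were higher without any 1 of the saline libraries (6.79% to 9.21%). In microglia 6 were higher without saline 15 d replicate 1 (0.591%) and 2 lower without replicate 2 (1.88%), and in endothelial cells 6 to 8 in place of 12 were lower without a P21 library or saline 15 d replicate 1 (5.71% to 8.92%). In astrocytes 0 in place of 3 were lower without P21 replicate 3 (0.283%) and 1 without saline maintenance replicate 1 (1.29%), and none of the 3 calls held in every fit. In both oligodendrocyte types 3 in place of 1 were lower without saline 15 d replicate 2 (2.61% in newly formed and 13.3% in mature ones). There 2 were lower without P21 replicate 1 in newly formed (1.24%) and without P21 replicate 2 in mature oligodendrocytes (7.88%). In inhibitory neurons 1 in place of 2 was lower without any 1 of the P21 libraries (5.45% to 10.7%). Of the 79 calls, 20 held in every fit that left out 1 library and still tested the gene. Of these, 6 were higher and 14 lower at P60, while 53.6% of the 9995 calls over all genes held by this rule. The 5 that were higher in excitatory neurons were Rpl5, Rpl6, Rpl22l1, Rpl24 and Rpl29-ps2, and Rps6 was the 1 in mature oligodendrocytes (Rpl6 and Rpl24 were named after their values were seen). The 14 that were lower included Rpl13 in excitatory neurons, both oligodendrocyte types and endothelial cells. They also included Rps2-ps5 in excitatory neurons, which was tested in only 5 of these fits.

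Rps2 and Rpl13 also marked out individual P60 libraries. In all 8 types the 3 highest P60 libraries for either gene were cocaine 15 d replicates 1 and 2 and saline 15 d replicate 2. In excitatory neurons Rps2 was at 587, 531 and 361 CPM in these 3 and at 96.9 to 191 CPM in the other 9. Rpl13 was at 1201, 1145 and 955 CPM in the same 3 and at 360 to 740 CPM elsewhere. Saline 15 d replicate 1, of the same group as the third, had 110 CPM of Rps2. Rps2 was among the 2 most variable core genes in 8 of 8 types and Rpl13 in 6. The last 300 bases of Rps2 matched 52 other places and those of Rpl13 matched 8, where the core genes had a median of 5 and a highest count of 57. What sets these libraries and those of P21 apart was not tested. The sources used here give 1 build and 1 set of tools for the whole series and do not say whether all libraries were aligned in the same run, so the age differences of Rps2 and Rpl13 carry this limit. For matching P21 to P60 cells, the methods chose Spearman correlation against bias from different sequencing technologies, which they do not name.

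Cocaine was compared with saline within each period. In excitatory neurons the share was 6.16% ± 0.30 after cocaine and 5.97% ± 0.377 after saline (n = 6 each), with differences of 0.373 percentage points at maintenance, 0.365 at 48 h and -0.169 at 15 d. In microglia it was 19.7% ± 2.15 and 18.7% ± 1.72, with differences of 1.41, 1.93 and -0.349. The average difference over periods was above 0 in all 8 types, from 0.0872 in mature oligodendrocytes to 0.996 in microglia, but no type passed the exact permutation test within periods (adjusted p 0.722 to 0.769). At 48 h all 8 types had a value above 0. In that period saline replicate 1 was among the 3 lowest P60 libraries in 7 types and cocaine replicate 2 among the 3 highest in 6, while cocaine replicate 1 was among the 3 lowest in 7. With 2 libraries against 2 the smallest exact p within a period is 0.333. Of 18 clusters with enough libraries, 17 had a value above 0, from -0.322 to 0.824 over all 18, with 0 passing.

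**Figure D5:**
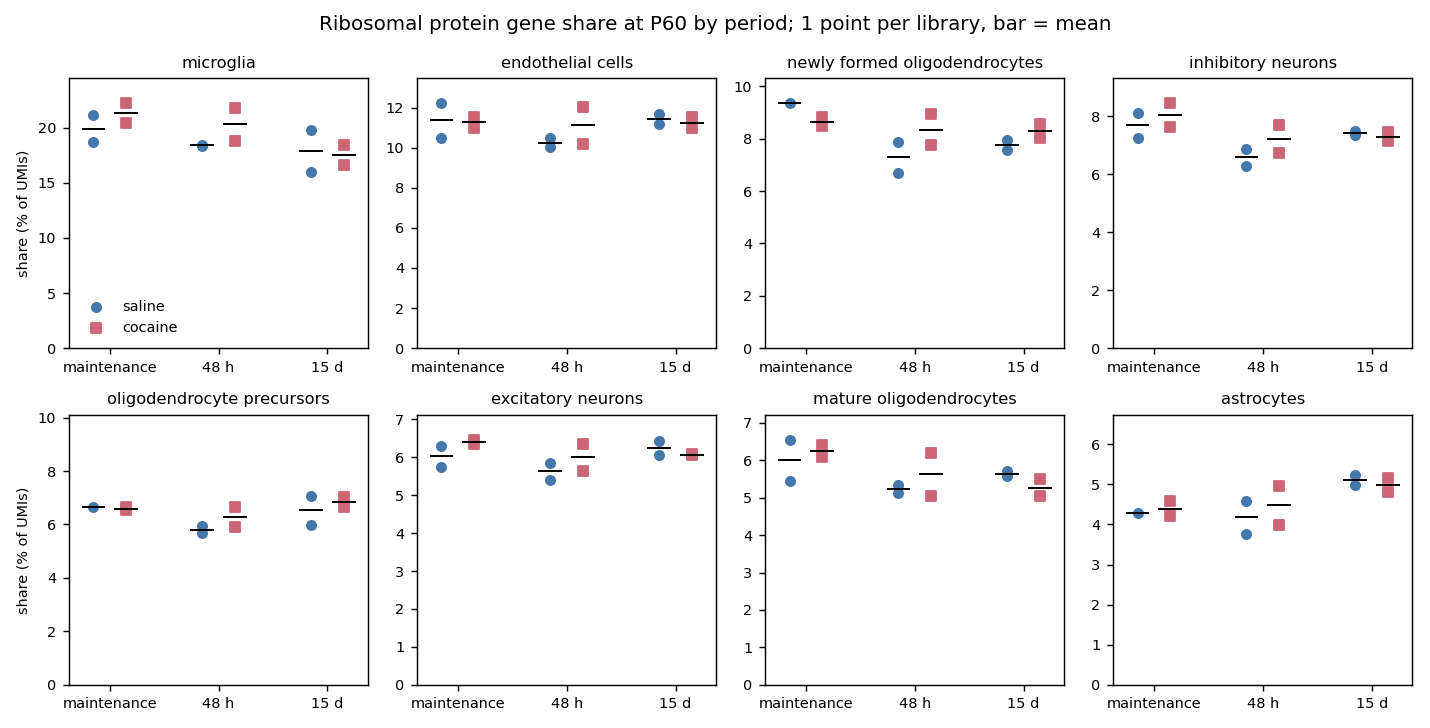
Share of UMIs on ribosomal protein genes in percent for saline and cocaine libraries at maintenance, 48 h and 15 d of withdrawal in 8 cell types, with 1 point per library. Differences in excitatory neurons run from -0.169 to 0.373 percentage points, and those in microglia from -0.349 to 1.93.

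No ribosomal protein gene passed the test for cocaine in edgeR. Of 731 pairs of gene and type, 0 were called at maintenance, at 48 h, at 15 d or on average, and DESeq2 also called 0. The background was 0.00981%, 0.00654%, 0.353% and 0.00491%. With an unadjusted p below 0.05 there were 17 pairs at maintenance (2.33%, against 4.47% of all pairs), 44 at 48 h (6.02% against 4.54%), 17 at 15 d (2.33% against 5.35%) and 17 on average (2.33% against 5.73%). At 15 d Rps2 in excitatory neurons had a difference of 1.29 (SE 0.51, adjusted p 0.637) and Rpl13 of 0.82 (adjusted p 0.821). Without saline 15 d replicate 2, 21 pairs were called at 15 d, where 1.51% of all pairs of gene and type were called. They were Rpl13 in 8 types (1.41 to 1.77), Rps2 in 7 types (2.09 to 2.82), and Rps19bp1, Rpl13-ps3 and Rps2-ps5 in 3, 2 and 1, and in that fit the saline 15 d group is a single library assumed to vary like the others. In the same fit 15 pairs were called on average over periods (0.516% of all pairs), Rpl13 in 7 types, Rps2 in 6, and Rps19bp1 and Rps2-ps5 in excitatory neurons. Without the filter on low counts 1 pair was called at 48 h (0.122% of all pairs), 10 at 15 d (0.716%) and 6 on average (0.309%), all of them of these 5 genes.

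Other genes of the translation machinery were set beside the ribosomal proteins, with the same background of 47.6% of all genes called higher and 33.8% called lower in excitatory neurons. Of 74 genes for mitochondrial ribosomal proteins tested, 66 were higher and 5 lower in excitatory neurons than in non-neuronal types (median log2 difference 0.66), opposite in sign to the cytosolic core with its median of -0.47. Among them were Mrps26 at 1.42 and Mrpl19 at 1.15. Genes of ribosome biogenesis were higher in 19 and lower in 4 of 28, with Wdr12 at 1.31 and Nop10 at 1.18. Of 18 genes of mTORC1 and cap-binding control 13 were higher and 4 lower, led by Eif4ebp1, a brake on the cap-binding factor, at 1.69 and by the mTORC1 activator Rheb at 1.34. Of 20 other genes with TOP messages, such as elongation factors, 6 were higher and 11 lower, with Eef1d at -1.97 and Nap1l1 at 1.43. The C with 4 pyrimidines stood at the start of 4 of the 13 genes of this list that had a start in the table (30.8%).

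With age in excitatory neurons, where 19.1% of all genes were called higher and 21.1% lower, 10 of the 20 other TOP genes were higher at P60 and 1 was lower, with Eef1g at 0.51 and the poly(A)-binding protein Pabpc1 at -0.57. Mitochondrial ribosomal proteins were higher in 24 and lower in 8 of 77, where the largest differences were those of Mrps24 at -2.02 and Mrps34 at -1.55. Biogenesis genes were higher in 12 and lower in 3 of 30, with Gar1 at -1.41 and Rrs1 at -0.71. P21 replicate 1 stood above the other P21 libraries for Mrps24, Mrps34 and Gar1. Mrps24 was at 84.4 CPM there against 25.4 and 26.5 CPM in replicates 2 and 3. For Mrps34 these were 152 against 53.7 and 42.9 CPM, and for Gar1 45.0 against 13.7 and 14.5 CPM. The cocaine 15 d libraries lay at 25.5 and 20.1 CPM for Mrps24 and at 21.2 and 16.5 CPM for Gar1. In the mTORC1 list 2 were higher and 2 lower of 20, Rheb at -1.13 and Pdcd4, an inhibitor of the helicase Eif4a1, at -1.07 being the lower ones. For cocaine at 15 d, the genes of these lists that passed in excitatory neurons were Mrps34 at 1.48, Mrps24 at 1.18, Gar1 at 1.06 and Akt1s1 at 0.93, where 0.805% of all genes were called. For all 4 the highest P60 libraries were cocaine 15 d replicates 1 and 2, which also stood apart for Rps2 and Rpl13. Mrps34 was at 90.5 and 81.1 CPM in these, at 41.6 CPM in saline 15 d replicate 2, at 19.8 to 31.8 CPM in the other 9 P60 libraries and at 42.9 to 152 CPM at P21. Akt1s1 was at 65.5 CPM in P21 replicate 1, against 4.97 and 6.06 CPM in P21 replicates 2 and 3. Without cocaine 15 d replicate 1, none of the 4 passed in edgeR (adjusted p 0.313 to 0.357), nor did any without saline 15 d replicate 1, and of the 12 fits that left out 1 library Mrps34 passed in 3 and each of the others in 10.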

How the data were processed

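Each library was a droplet scRNA-seq library (10x Chromium). The authors aligned reads to mm9 with Cell Ranger, removed low-quality cells and doublets, and clustered cells with Seurat 2.1.0 without mitochondrial and ribosomal genes. The deposited matrices hold raw UMI counts per gene and cell for each library, and for every retained cell the authors' deposited table names a type and a cluster. The deposited table also lists the mitochondrial fraction of each cell, which was not used. The series-wide matrix was not used, and 0 columns of other samples were present.

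The genes and lists described here were chosen with earlier results of these data known. Python 3.11.15 served to sum and compare the counts, with pandas 2.3.3, scipy 1.17.1 and numpy 2.4.6. UMIs of the 13 mitochondrial genes were left out, counts were summed per library and cell type with at least 10 cells, and libraries were the replicates. Shares were compared by two-sided exact permutation (sign flips between types within libraries, all assignments between ages, assignments within periods for cocaine), with Benjamini-Hochberg adjustment. Genes were tested over the whole table in R 4.3.3 with edgeR 4.0.16 (filter on low counts, TMM, robust quasi-likelihood) with calls where the p, adjusted by Benjamini and Hochberg, was below 0.05, and DESeq2 1.42.0 was an alternative. The genes named were the 5 with the highest shares, the 3 called genes with the largest rise and fall in each comparison, and a fixed list (Rplp0, Rplp1, Rplp2, Rpsa, Rps6, Rpl5, Rpl11, Rps19, Rpl10, Rps4x, Rpl39, Rpl36a, Rps27, Rpl22 and the paralogs). Others were named after their values were seen. Near-identical ends were found with minimap2 2.31-r1302 (at least 95% identity over 50% of the length). On counts simulated from these libraries, 80.0% of genes changed by 1 on the log2 scale were called between ages in excitatory neurons (13318 genes). In microglia (3932 genes) 10.0% were called, and of genes changed by 2, 95.0% and 66.0% were called in these types. Only 200 genes were changed and none by less than 1. These figures therefore do not cover differences as small as the core median of 0.27 in excitatory neurons. Depth was 8375172 to 42892922 UMIs per P60 library.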

Additional observations from a re-analysis of the deposited data

Results flagged for a closer look

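In excitatory neurons, saline 15 d replicate 2 stood far above the other 5 saline P60 libraries for 4 genes. It had 955 CPM of Rpl13, 361 CPM of Rps2, 6.34 CPM of Rpl13-ps3 and 0.379 CPM of Rps2-ps5, each separated from the next library by most of the range of the group. These came from 66 such comparisons over 33 genes and 16 over shares, of which chance alone would mark about 1 in 20. By their symbols Rps2-ps5 and Rpl13-ps3 are copies of Rps2 and Rpl13, so their reads may not be separate.

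The difference in share between saline P60 and P21 was not the same in all cell types. Relative to excitatory neurons of the same libraries it was larger by 0.715 percentage points in inhibitory neurons, by 0.543 in mature oligodendrocytes and by 5.16 in microglia, and its value was -1.78 in astrocytes, each past the exact permutation test of the difference itself with an adjusted p of 0.0357.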

How the results depend on the processing

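Leaving out 1 library at a time, the age difference in share ran from 0.362 to 1.06 in excitatory neurons, 1.04 to 1.85 in inhibitory neurons, -1.28 to -0.864 in astrocytes, -0.304 to 0.360 in newly formed oligodendrocytes, 0.860 to 1.60 in mature oligodendrocytes, 4.69 to 7.12 in microglia and -0.0651 to 1.26 in endothelial cells. Relative to excitatory neurons it ran from 0.606 to 0.790 in inhibitory neurons, -2.24 to -1.42 in astrocytes, -1.02 to -0.253 in newly formed oligodendrocytes, 0.426 to 0.621 in mature oligodendrocytes, 4.19 to 6.05 in microglia and -0.427 to 0.194 in endothelial cells. Cocaine differences ran from 0.0702 to 0.309 in excitatory neurons, 0.132 to 0.446 in inhibitory neurons, -0.0659 to 0.254 in astrocytes, 0.0611 to 0.429 in oligodendrocyte precursors, 0.0875 to 0.789 in newly formed oligodendrocytes, -0.106 to 0.281 in mature oligodendrocytes, 0.364 to 1.63 in microglia and -0.110 to 0.501 in endothelial cells. Age calls over 7 types ran from 7 to 175 higher (49 with all libraries) and 19 to 39 lower (30), while 4.82% to 9.70% of all genes were called higher (8.65% with all libraries) and 6.69% to 11.4% lower (10.3%), and cocaine calls from 0 to 0 at maintenance and 48 h, 0 to 21 at 15 d and 0 to 15 on average, both highest without saline 15 d replicate 2.

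Pairs of types missed the threshold with only the 6 saline P60 libraries, where few libraries limit the p (7.73 for microglia minus endothelial cells, then 3.22, 0.677, 0.956, 0.249, 0.345 and 1.08 down the order of types), with at least 30 cells (3.32 for endothelial cells minus newly formed oligodendrocytes, 0.669 for these minus inhibitory neurons), and with the mean of the cells' own shares (0.140 for excitatory neurons minus mature oligodendrocytes). With all 12 P60 libraries the age difference passed in excitatory (0.740) and inhibitory neurons (1.5), astrocytes (-1.06), mature oligodendrocytes (1.23) and microglia (6.30). Relative to excitatory neurons it missed with only the 2 saline 15 d libraries (inhibitory 0.635, astrocytes -1.48, mature oligodendrocytes 0.286, microglia 4.04), with P21 libraries 2 and 3 summed (0.677, -1.56, 0.545 and 4.60), and with mitochondrial UMIs kept in mature oligodendrocytes (0.434). Counts here are followed by the share of all genes called the same way. Age calls higher at P60 were 119 with DESeq2 (8.35%), 16 with equal cell numbers (7.79%), 109 with all P60 libraries (10.1%), 27 with the 2 saline 15 d libraries (5.10%, and 17 lower, 5.21%), 8 with P21 libraries summed (5.31%) and 4 past 1.5-fold (4.93%). Without a filter on low counts cocaine calls were 1 at 48 h (0.122%), 10 at 15 d (0.716%) and 6 on average (0.309%). Excitatory against non-neuronal calls were 2 higher with DESeq2 (39.8%) or its size factors (40.1%), 16 without the filter (41.6%), 3 with equal cells (45.3%) and 2 past 1.5-fold (34.7%, and 31 lower, 24.6%). Against inhibitory neurons they were 2 higher and 71 lower with DESeq2 size factors (23.7% and 30.6%), 2 and 72 with DESeq2 (22.5% and 32.4%), 15 and 8 without the filter (28.1% and 13.3%), 3 and 47 with scaling from other genes (28.7% and 25.7%), 3 and 34 with equal cells (26.2% and 17.2%), 8 lower with only saline libraries (16.8%), and 0 and 1 past 1.5-fold (17.6% and 15.1%). Rplp2 there was -0.0205 with the size factors and -0.0223 with the DESeq2 test. The cause of these changes was not tested. No paired analysis was possible because the labels give no numbers that pair cocaine with saline libraries or P21 with P60 ones (cell types were compared within libraries).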

Other observations

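Barcodes that the authors left out (8435 of 43795) had a ribosomal protein share of 4.28% to 7.73% by library, with a median of 5.69%, and lay above the retained cells of their library in 3 of 15 libraries. Oligodendrocyte precursors at P21 could not be compared, since P21 replicates 2 and 3 held 7 and 6 of these cells. The 28 cells of P21 replicate 1 had a share of 9.18%, with 888 CPM of microglial markers and 43305 CPM of haemoglobin genes among them.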
